A study of Mus musculus with 12 samples.

Results

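The 9 genes *Cthrc1*, *Postn*, *Tnc*, *Fn1*, *Thbs1*, *Adam12*, *Ltbp2*, *Grem1* and *Runx1* were taken by symbol from the 31053 genes measured in single-nucleus RNA sequencing of mouse lung. The set was proposed as matrix and signaling genes of activated fibroblasts, and the question was how much of each gene's RNA lay in fibroblasts, how much lay in other cell classes or outside cells, and how it differed after bleomycin and the EphB4 inhibitor NVP-BHG712. Frozen lungs of 12 WT C57BL/6J mice, 7 weeks old at the challenge, gave 1 library each, with 3 mice in each of 4 groups. PBS_Vehicle mice received PBS into the airway and then the vehicle, PBS_NVP-BHG712 mice received PBS and the inhibitor, Bleo_Vehicle mice received bleomycin and the vehicle, and Bleo_NVP-BHG712 mice received bleomycin and the inhibitor. Vehicle or inhibitor was given for 5 days from day 5, and lungs were taken on day 14. No group carried a transgene. The inhibitor was given to the whole animal, so these comparisons do not show in which cells it acted.

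Activated fibroblasts repair injured lung by laying down a provisional matrix, and in fibrosis that matrix persists. Fibronectin, encoded by *Fn1*, and tenascin-C, encoded by *Tnc*, are glycoproteins of this matrix that cells bind through integrins, and periostin, encoded by *Postn*, ties collagen fibers to other matrix proteins. Thrombospondin-1, encoded by *Thbs1*, can release active TGF-β from its latent complex, and *Ltbp2* encodes a fibrillin-binding protein of elastic fibers. *Adam12* encodes a membrane metalloprotease, *Cthrc1* a secreted protein that marks collagen-producing fibroblasts of injured lung, and *Grem1* a secreted BMP antagonist. *Runx1* differs from the rest in that it encodes a DNA-binding transcription factor, best known from blood cell development.

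After filtering, 44611 nuclei remained, of which 9988 were named fibroblast-like from their markers. All cell class names here were rebuilt from marker genes in this way and stand for "-like" classes, and no member was among the markers or the genes used for clustering. Libraries held 3556084 to 61947690 unique molecular identifiers (UMIs), and fibroblast sums held 876341 to 9154282. Of 48838 distinct barcodes, 324 occurred in more than 1 library. Nuclei of Bleo_Vehicle replicates 1 to 3 had median mitochondrial shares of 2.56%, 1.32% and 0.668%, while the remaining 9 libraries did not exceed 0.0497%. Bleo_Vehicle replicate 1 had the lowest median depth, 925 UMIs, and stood apart in most values below. The labels gave sequencing runs 1 to 3 for the PBS groups, run 4 for Bleo_NVP-BHG712, and batches 6 and 7 for Bleo_Vehicle. No comparison with Bleo_Vehicle can therefore separate its group from its batch, and their effects cannot be told apart. The same holds for Bleo_NVP-BHG712 and its run in comparisons with the PBS groups.

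The label of the set did not hold for every gene. Summed over all 12 libraries, fibroblasts held 87.7% of the *Tnc* UMIs, 66.3% of the *Thbs1* UMIs and 64.9% of the *Fn1* UMIs. They held 43.9% for *Ltbp2*, 27.3% for *Adam12*, 6.41% for *Runx1*, 5.44% for *Cthrc1* and 5.10% for *Postn*. Such sums weight the deeper libraries, and the order depended on the group, since the mean share of *Fn1* was 81.7% and that of *Thbs1* 75.5% in PBS_Vehicle but 51.0% and 57.3% in Bleo_Vehicle. *Grem1* had 30 UMIs in all, 20 of them in 8 fibroblast nuclei. Levels are given below in UMIs per 1000000 UMIs of the class in that library (CPM) as the mean ± SD over libraries with at least 20 nuclei of the class, and classes were compared within a gene, never genes with each other. In this ordering, neighboring classes were taken to differ when their mean difference within libraries was larger than its SD.

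**Figure D1:**
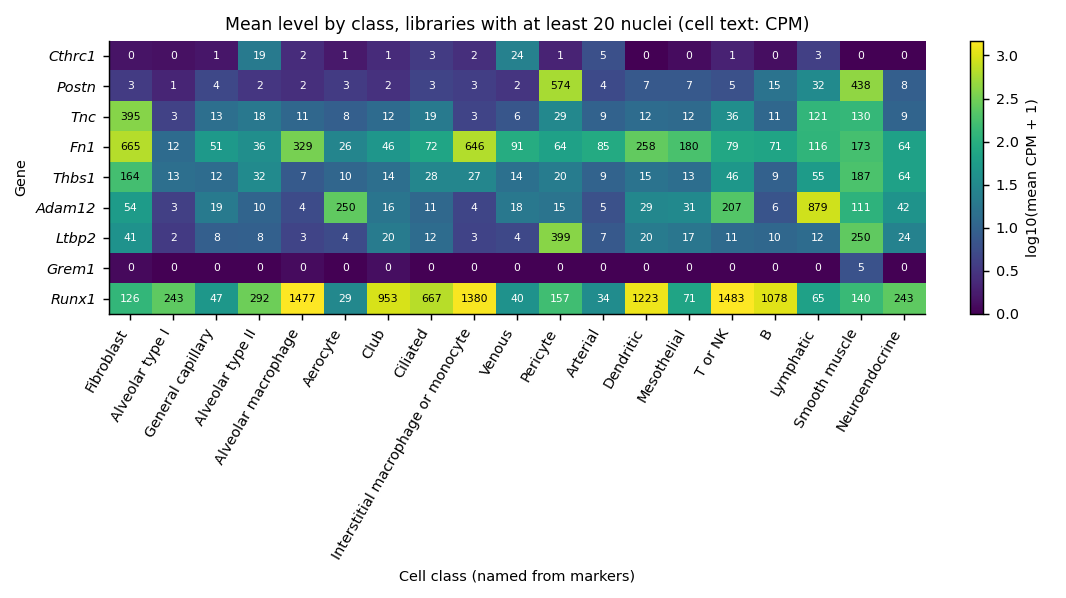
Mean level of each gene (rows) in each of the 19 cell classes (columns), with the color giving log10 of the mean CPM plus 1 and the number in each cell giving the mean CPM over libraries with at least 20 nuclei. The *Tnc* and *Fn1* rows are highest in fibroblasts, the *Postn* and *Ltbp2* rows in pericytes, and the *Adam12* row in lymphatic cells.

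Among the provisional matrix genes, *Tnc* was highest in fibroblasts, at 395 ± 752 CPM (n = 12 libraries), followed by smooth muscle at 130 ± 34.0 CPM (n = 3) and lymphatic endothelium at 121 ± 110.5 CPM (n = 7). The median over the 12 fibroblast sums, 195 CPM, was lower than their mean because the range reached 2776 CPM in Bleo_Vehicle replicate 1. Fibroblasts and smooth muscle differed beyond their spread, with fibroblasts higher in 3 of 3 libraries. *Fn1* measured 665 ± 289.5 CPM in fibroblasts (n = 12), 646 ± 417 CPM in interstitial macrophages or monocytes (n = 11) and 329 ± 185.5 CPM in alveolar macrophages (n = 12). Fibroblasts were above interstitial macrophages in 5 of 11 libraries, so the first and second places of *Fn1* did not differ beyond their spread, whereas fibroblasts were above alveolar macrophages in 12 of 12. *Thbs1* was highest in smooth muscle, at 187 ± 56.8 CPM (n = 3), with fibroblasts next at 164 ± 141 CPM (n = 12).

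*Postn* and *Ltbp2* were highest in pericytes and smooth muscle, both contractile cell classes. *Postn* measured 574 ± 272 CPM in pericytes (n = 8) and 438 ± 10.0 CPM in smooth muscle (n = 3), against 2.58 ± 2.93 CPM in fibroblasts (n = 12). Pericytes held 62.8% of its UMIs, and no library had a higher level in fibroblasts than in pericytes. *Ltbp2* measured 399 ± 128 CPM in pericytes, 250.5 ± 92.9 CPM in smooth muscle and 40.9 ± 64.9 CPM in fibroblasts, and each of these steps was beyond the spread. Unlike *Postn*, *Ltbp2* had more UMIs in fibroblasts (1394 in 9988 nuclei) than in pericytes (864 in 914 nuclei). Bleo_Vehicle fibroblasts held 1040 of these 1394 UMIs.

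*Adam12* was highest in lymphatic endothelium, at 879 ± 239 CPM (n = 7), where 60.3% of nuclei held a UMI. Aerocytes, the capillary cells of gas exchange, followed at 250.3 ± 136 CPM (n = 12), T or NK cells at 207 ± 102 CPM (n = 7), and fibroblasts were the fifth, at 54.1 ± 125 CPM. *Cthrc1* measured 24.1 ± 17.5 CPM in venous endothelium and 18.7 ± 11.2 CPM in alveolar type II cells (both n = 12), against 0.463 ± 0.519 CPM in fibroblasts. Fibroblasts were below both classes in every library, and 4.39% of alveolar type II nuclei (median depth 2356 UMIs) but 0.210% of fibroblast nuclei (median depth 3180 UMIs) held a *Cthrc1* UMI. *Grem1* did not exceed 1.86 CPM in any fibroblast sum, and its order across classes could not be resolved at this depth.

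*Runx1* was above 1000 CPM in the 5 leading classes, all of blood origin. It measured 1483 ± 392.5 CPM in T or NK cells (n = 7), 1477 ± 339 CPM in alveolar macrophages (n = 12) and 1380.0 ± 335 CPM in interstitial macrophages or monocytes (n = 11), which did not differ beyond their spread. In fibroblasts it measured 126 ± 206 CPM with a median of 46.2 CPM, rank 13 of the 19 classes.

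Promoter sequence is shown for *Ltbp2* and *Runx1*, since these genes and *Adam12* moved together in fibroblasts below. The bases come from the RefSeq promoter table of GRCm38.p6, which held *Postn*, *Tnc*, *Ltbp2*, *Grem1* and *Runx1* of the 9 genes. Up to 250 bases before a RefSeq start are printed 5′ to 3′ on the gene's strand, and bases in exons of GENCODE M21 were cut off. *Ltbp2* is shown for chr12:84876533-84876741 (minus strand), the *Runx1* distal promoter for chr16:92826150-92826324 (minus strand) and the *Runx1* proximal promoter for chr16:92697330-92697579 (minus strand), with matches to the CCAAT box (letters CCAAT) in capitals.
Ltbp2: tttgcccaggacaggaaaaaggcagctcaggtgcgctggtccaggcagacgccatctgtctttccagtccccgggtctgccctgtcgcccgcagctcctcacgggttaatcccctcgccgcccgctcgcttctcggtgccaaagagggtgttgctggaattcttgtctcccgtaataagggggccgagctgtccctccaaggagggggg
Runx1 distal: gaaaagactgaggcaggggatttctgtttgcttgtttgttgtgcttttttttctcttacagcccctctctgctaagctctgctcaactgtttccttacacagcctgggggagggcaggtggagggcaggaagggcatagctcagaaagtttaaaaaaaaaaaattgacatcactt
Runx1 proximal: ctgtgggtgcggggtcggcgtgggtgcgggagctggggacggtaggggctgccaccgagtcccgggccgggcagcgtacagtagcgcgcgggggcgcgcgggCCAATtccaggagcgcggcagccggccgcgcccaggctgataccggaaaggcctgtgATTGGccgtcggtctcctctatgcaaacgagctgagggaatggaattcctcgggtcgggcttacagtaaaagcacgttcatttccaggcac
The RUNX core (TGTGGT), the AP-1 site (TGANTCA), the TATA box (TATAAA) and the CCAAT box were searched on both strands of the whole 250 bases, and no matches overlapped in these 3 windows. No match to any of the 4 was found for *Ltbp2*, and each *Runx1* window held 2 matches to the CCAAT box, those of the distal window lying in the bases cut off. Of 32851 promoters of the same length in the table, 14.05% held the RUNX core, 6.75% the AP-1 site, 12.4% the TATA box and 33.9% the CCAAT box, so these matches describe the letters and are not evidence of binding.

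The genes of the files lie at these places in GRCm38, per GENCODE M21. *Tnc* lies at chr4:63959785-64047015 (minus), *Fn1* at chr1:71585520-71653200 (minus), *Thbs1* at chr2:118111876-118127133 (plus), *Postn* at chr3:54361109-54391037 (plus) and *Cthrc1* at chr15:39076932-39087121 (plus). *Adam12* lies at chr7:133883199-134232146 (minus), *Ltbp2* at chr12:84783212-84876532 (minus), *Grem1* at chr2:113746164-113758646 (minus) and *Runx1* at chr16:92601466-92826149 (minus). Genes on the opposite strand overlap parts of *Tnc*, *Fn1*, *Thbs1*, *Ltbp2* and *Runx1*. The strand setting of the counting was not given in the sources used here, so UMIs from such stretches cannot be told apart.

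RNA free in the suspension was estimated from classes that should lack matrix genes. For all genes but *Runx1* the reference was B, T or NK and ciliated cells, pooled. *Fn1* in this reference was 429.8, 218 and 83.7 CPM in Bleo_Vehicle replicates 1 to 3, and between 5.77 and 24.8 CPM in the other 9 libraries. The reference level of *Fn1* was thus higher in every Bleo_Vehicle library than in any other library. *Tnc* behaved likewise in 2 of them, at 122, 51.1 and 13.1 CPM in Bleo_Vehicle and at most 20.9 CPM elsewhere. So did *Ltbp2*, at 40.55, 40.42 and 9.53 CPM in Bleo_Vehicle and at most 9.63 CPM elsewhere. The fibroblast level of *Ltbp2* was 5.825, 1.629 and 7.061 times the reference in Bleo_Vehicle replicates 1 to 3. *Fn1* stayed above the reference in fibroblasts of all 12 libraries, by 2.86 to 7.89 times in Bleo_Vehicle and by 17.9 to 97.4 times elsewhere.

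The reference was then subtracted from the fibroblast level of each library. For *Fn1* this may take away too much, since some classes held less *Fn1* than the reference, as given below. The ratio of the Bleo_Vehicle to the PBS_Vehicle mean was 1.69 for *Fn1* before and 1.29 after subtraction, 8.62 and 8.60 for *Tnc*, and 9.52 and 12.3 for *Ltbp2*. These ratios rest in large part on Bleo_Vehicle replicate 1, without which they were 1.15 and 0.906 for *Fn1*, 1.68 and 1.51 for *Tnc*, and 5.15 and 5.49 for *Ltbp2*. For *Adam12* the reference includes T or NK cells, which were among its highest classes. With the lowest of the 3 reference classes in its place, the *Adam12* ratio was 17.7 before and 15.9 after, and 5.2 and 3.28 without that replicate. With the same lowest class the *Ltbp2* ratio after subtraction was 7.28, and 3.57 without that replicate. Whether subtraction raised or lowered the *Ltbp2* ratio therefore depended on the reference. The reference for *Runx1* was ciliated and alveolar type II cells, of which 71.0% and 47.7% of nuclei held a *Runx1* UMI. It exceeded the fibroblast level in 11 of 12 libraries. These classes held *Runx1* themselves, so they could not measure its free RNA, and no subtraction was made. *Postn* in Bleo_Vehicle fibroblasts was 5.71, 8.19 and 7.21 CPM against 0, 22.3 and 7.41 CPM in the reference, and *Cthrc1* was 0, 1.82 and 0.874 CPM against 8.11, 1.06 and 2.47 CPM. *Postn* was thus at or below the reference in replicates 2 and 3 and *Cthrc1* in replicates 1 and 3, and these values are background by this measure.

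**Figure D2:**
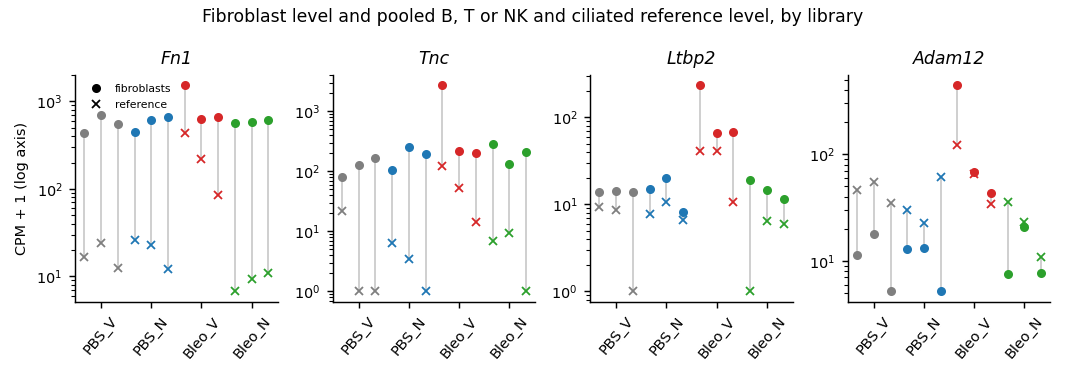
Level of *Fn1*, *Tnc*, *Ltbp2* and *Adam12* in fibroblasts (dots) and in the pooled B, T or NK and ciliated reference (crosses) of the same library, in CPM plus 1 on a log axis, with the 3 libraries of each group side by side. The *Fn1* crosses stand at 83.7 to 429.8 CPM in Bleo_Vehicle and below 25 CPM elsewhere, while for *Adam12* the crosses lie above the dots in most libraries.

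In fibroblasts, 3 of the 7 genes with enough UMIs for a test rose between PBS_Vehicle and Bleo_Vehicle: *Ltbp2* 9.07-fold, *Runx1* 7.51-fold and *Adam12* 16.4-fold. The other 4 did not pass the test, and *Cthrc1* and *Grem1* had too few UMIs to be tested. The share of all 10603 genes called in this comparison was 3.61%, and 20% of all genes had groups that did not overlap, against 5 of the 7. The values below are CPM scaled by TMM, listed in the order of replicates 1, 2 and 3.

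*Ltbp2*, the elastic fiber gene, was at 11.7, 14.1 and 13.3 CPM in PBS_Vehicle and at 236.5, 65.0 and 65.4 CPM in Bleo_Vehicle. Every Bleo_Vehicle library lay above every PBS_Vehicle library, and replicates 2 and 3 agreed within 1 CPM. After subtraction of the free RNA reference, unscaled, replicates 2 and 3 stood apart, at 25.43 and 57.76 CPM. The log2 fold change was 3.18 with a standard error of 0.51 (adjusted p = 0.00736). Without Bleo_Vehicle replicate 1 it was 2.34 (adjusted p = 0.000505).

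*Runx1* was at 52.2, 44.3 and 44.4 CPM in PBS_Vehicle and at 760, 204 and 127.5 CPM in Bleo_Vehicle. The groups did not overlap, and the 3 Bleo_Vehicle libraries spread over a wider range than those of PBS_Vehicle. Its log2 fold change was 2.91 with a standard error of 0.54 (adjusted p = 0.0203), and 1.80 without Bleo_Vehicle replicate 1 (adjusted p = 0.000434). In 11 of 12 libraries *Runx1* was lower in fibroblasts than in alveolar macrophages, the exception being Bleo_Vehicle replicate 1. How much of the fibroblast *Runx1* values was free RNA was not tested.

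*Adam12* was at 9.42, 18.0 and 4.44 CPM in PBS_Vehicle and at 448, 65.9 and 41.2 CPM in Bleo_Vehicle. Again the groups did not overlap, and replicate 1 was far above the other two. The log2 fold change of 4.03 with a standard error of 0.94 (adjusted p = 0.0434) became 2.31 without that replicate (adjusted p = 0.0404). Of the 3 calls, that of *Adam12* was lost most often: it passed in 9 of 21 alternative settings, against 19 for *Ltbp2* and 18 for *Runx1*. Without PBS_Vehicle replicate 3 none of the 3 passed (edgeR adjusted p = 0.172 for *Adam12*, 0.0514 for *Ltbp2* and 0.0987 for *Runx1*), with log2 fold changes of 3.74, 3.19 and 2.86. With only the libraries of these 2 groups in the fit none passed either (adjusted p = 0.122, 0.0621 and 0.0947).

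*Tnc* was at 71.2, 137 and 171 CPM in PBS_Vehicle and at 2780, 215 and 193 CPM in Bleo_Vehicle. The groups did not overlap, yet replicates 2 and 3 of Bleo_Vehicle were close to the highest PBS_Vehicle library. The log2 fold change of 3.07 did not pass the test (standard error 0.97, adjusted p = 0.124) and was 0.71 without replicate 1. In that library 2433 *Tnc* UMIs came from 197 of 493 fibroblast nuclei, 1 nucleus held 831 of them, and the 10 highest nuclei held 62.4%. Without those 10 nuclei the library stood at 1191 CPM, unscaled, which was still the highest of the 12.

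*Fn1* was at 393, 738 and 578 CPM in PBS_Vehicle and at 1551, 616 and 642 CPM in Bleo_Vehicle. These groups overlapped, and the log2 fold change of 0.71 did not pass the test (standard error 0.34, adjusted p = 0.299). *Thbs1* also overlapped, at 64.8 to 254 CPM in PBS_Vehicle and 78.4 to 544 CPM in Bleo_Vehicle (log2 fold change 0.88, adjusted p = 0.689), and its log2 fold change was -0.38 without Bleo_Vehicle replicate 1. *Postn* was at 0 to 3.90 CPM and 5.71 to 8.08 CPM, which did not overlap but rested on 15 and 98 UMIs, and its log2 fold change of 2.12 did not pass the test (adjusted p = 0.132).

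Some lists of marker genes of other cells moved with these values, and not all in the same direction. Of 25 marker lists of other classes, 5 had a summed level in every Bleo_Vehicle fibroblast sum above every other library. Their sums included 71.7 to 173 CPM for alveolar macrophage markers against 10.3 to 29.9 CPM in PBS_Vehicle, and 42.9 to 138 CPM for interstitial macrophage markers against 7.86 to 31.7 CPM. Mesothelial markers went the other way, with 71.9 to 129 CPM in Bleo_Vehicle against 175 to 186 CPM in PBS_Vehicle. Alveolar type II markers, at 345.8 to 1396 CPM against 125.5 to 532.3 CPM, had larger sums but overlapped. Club markers overlapped too, at 477 to 1374 CPM against 161.5 to 523.5 CPM. The fibroblast markers themselves were lower without overlap, at 4950 to 8089 CPM in Bleo_Vehicle against 9414 to 12270 CPM in PBS_Vehicle. A set of 657 fibroblast nuclei in subclusters led by genes of another class, 441 of them in Bleo_Vehicle, was left out in a setting chosen after seeing the data. The log2 fold changes were then 3.19 for *Ltbp2*, 2.99 for *Runx1* and 4.02 for *Adam12*, and all 3 calls held (adjusted p = 0.0113, 0.0283 and 0.0467).

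**Figure D3:**
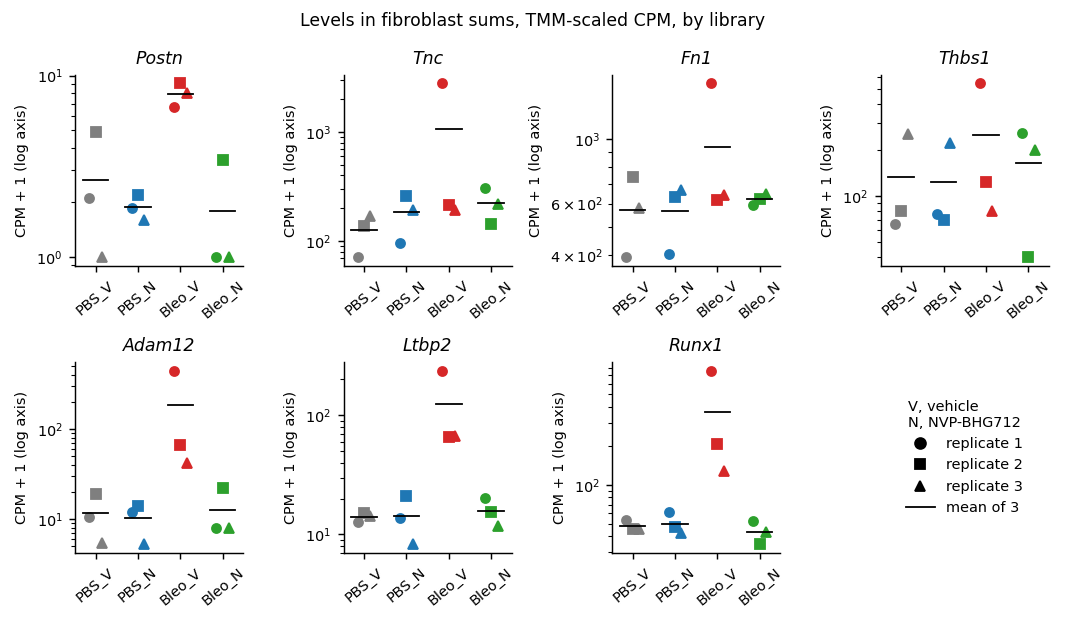
TMM-scaled CPM plus 1 of the 7 testable genes in the fibroblast sum of each library, on log axes that differ between panels, with marker shape giving the replicate and a line the mean of 3. The Bleo_Vehicle points of *Adam12*, *Ltbp2* and *Runx1* lie above all points of the other groups, and replicate 1 is the highest of the 3 except for *Postn*.

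Between Bleo_Vehicle and Bleo_NVP-BHG712 the same 3 genes fell in fibroblasts, to levels near those of PBS. The share of all genes called was 7.00%, and 29.6% of genes had groups that did not overlap, against 4 of the 7. *Ltbp2* was at 19.0, 14.5 and 10.8 CPM in Bleo_NVP-BHG712, a log2 fold change of -3.01 with a standard error of 0.53 (adjusted p = 0.00949). *Runx1* was at 51.1, 33.7 and 42.1 CPM, a log2 fold change of -3.09 with a standard error of 0.56 (adjusted p = 0.0116). *Adam12* was at 7.01, 21.2 and 7.01 CPM, a log2 fold change of -3.80 with a standard error of 0.96 (adjusted p = 0.0406). For each of the 3, every Bleo_NVP-BHG712 library lay below every Bleo_Vehicle library. Without Bleo_Vehicle replicate 1 the log2 fold changes were -2.17, -1.98 and -2.08, and all 3 calls held (adjusted p = 0.00129, 0.000268 and 0.0497). Without Bleo_NVP-BHG712 replicate 3 they were -2.82, -3.08 and -3.50, and none passed (adjusted p = 0.0588, 0.0617 and 0.147). With only the libraries of these 2 groups in the fit, *Ltbp2* (adjusted p = 0.0276) and *Runx1* (adjusted p = 0.0332) passed and *Adam12* did not (adjusted p = 0.0615). The comparisons of Bleo_Vehicle with PBS_Vehicle and with Bleo_NVP-BHG712 share the Bleo_Vehicle libraries, so their values are not independent.

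The other 4 genes did not pass this test. *Tnc* was at 306, 142 and 220.5 CPM in Bleo_NVP-BHG712, a range that overlaps Bleo_Vehicle (log2 fold change -2.25, adjusted p = 0.185), and the log2 fold change was 0.12 without Bleo_Vehicle replicate 1. *Fn1* was at 594, 620 and 644 CPM (log2 fold change -0.59, adjusted p = 0.318). *Thbs1* ranged from 39.0 to 255.5 CPM (log2 fold change -0.57, adjusted p = 0.759), and without Bleo_Vehicle replicate 1 its log2 fold change was 0.69. *Postn* was at 0, 2.41 and 0 CPM, below every Bleo_Vehicle library (log2 fold change -2.75, adjusted p = 0.0713).

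Under PBS, NVP-BHG712 moved none of the 7 genes past the threshold with edgeR, as it moved none of the 10603 genes (0% called, 48 genes at an unadjusted p under 0.05). The log2 fold changes of the members lay between -0.81 for *Postn* and 0.54 for *Tnc*. Between PBS_NVP-BHG712 and Bleo_NVP-BHG712 also no gene was called (0%, 322 genes at an unadjusted p under 0.05), with members between -0.26 for *Runx1* and 0.43 for *Thbs1*. PBS_NVP-BHG712 and Bleo_NVP-BHG712 shared no run, so group and run cannot be told apart in that comparison. DESeq2 called no member in either comparison.

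The interaction, which is the NVP-BHG712 effect under bleomycin less that under PBS, called no member, against 0.217% of all genes. Its log2 values were -3.09 for *Ltbp2* (standard error 0.75, adjusted p = 0.133) and -3.17 for *Runx1* (standard error 0.77, adjusted p = 0.137). Both passed with DESeq2 and without Bleo_Vehicle replicate 1, where they were -2.25 (adjusted p = 0.0305) and -2.06 (adjusted p = 0.00621). Both also passed with the replicate number as a block, at -2.94 (adjusted p = 0.0489) and -2.86 (adjusted p = 0.0440). Replicate numbers, however, paired only the 2 PBS groups. Each of the 2 genes passed in 4 of 20 alternative settings in all. The interaction of *Adam12* was -3.68 (adjusted p = 0.277).

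The share of fibroblast nuclei with a UMI was compared after thinning each nucleus to 500 UMIs, which left out no fibroblast. *Runx1* was found in 12.8% ± 9.06 of nuclei in Bleo_Vehicle and 3.19% ± 0.687 in PBS_Vehicle (SD, n = 3), *Ltbp2* in 5.31% ± 3.83 and 0.688% ± 0.0236, and *Tnc* in 13.4% ± 11.6 and 4.75% ± 1.16. For none of these 3 genes did the groups overlap, with an exact two-sided permutation p of 0.1 for each, the smallest that 3 against 3 can give. *Adam12*, at 1.32% to 15% against 0.238% to 1.34%, overlapped. *Fn1* was found in 22.8% to 41.8% of Bleo_Vehicle and 15.6% to 21.8% of PBS_Vehicle fibroblasts, which also did not overlap. These were 4 of the 7 testable genes, against 17.1% of all 10603 genes with thinned shares that did not overlap. In the reference classes the thinned *Fn1* share was 15.3%, 5.54% and 4.6% in Bleo_Vehicle and at most 1.16% in PBS_Vehicle.

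Unthinned, at median depths of 1102, 1313 and 3787 UMIs, 19.5%, 9.52% and 15.3% of Bleo_Vehicle fibroblasts held *Ltbp2*, against 2.86% to 4.45% at 2878 to 5904 UMIs in PBS_Vehicle. The *Ltbp2* share was higher in the shallower group. Unthinned reference shares of *Ltbp2* were 5.56%, 7.29% and 2.81% in Bleo_Vehicle. *Cthrc1* was found in 13 of 4210 Bleo_Vehicle and 4 of 1748 PBS_Vehicle fibroblasts without thinning. *Grem1* was found in 7 of 4210 Bleo_Vehicle fibroblasts and in 0 of 1232 in Bleo_NVP-BHG712, which allows a share of up to 0.244%, a limit for nuclei with a UMI and not for nuclei that express *Grem1*, and for counting error only. A difference in these 2 genes was therefore not detectable at this depth.

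Clustering the fibroblasts gave 6 main subclusters, of which 4 could be named from markers that exclude the 9 genes. They were alveolar (2875 nuclei), adventitial (1069), fibrotic (877) and peribronchial (398), and 2 others of 2264 and 1848 nuclei stayed unnamed, 1 of them with many mitochondrial transcripts among its leading genes. *Kif26b* and *Chst11* were among the leading genes of the fibrotic subcluster. In Bleo_Vehicle this subcluster held 12.1% of fibroblast nuclei but 46.1% of the *Adam12* UMIs, 39.2% of the *Tnc* UMIs, 38.4% of the *Thbs1* UMIs, 32.1% of the *Runx1* UMIs, 23.6% of the *Ltbp2* UMIs and 14% of the *Fn1* UMIs. All 19 *Grem1* UMIs of Bleo_Vehicle fibroblasts lay in it, in 7 nuclei.

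Levels within the fibrotic subcluster differed between groups for 5 of the 6 testable members. In Bleo_Vehicle against PBS_Vehicle, *Runx1* rose by a log2 fold change of 3.20 (standard error 0.43, adjusted p = 0.00016), *Adam12* by 3.98 (0.92, 0.0214), *Tnc* by 2.42 (0.66, 0.0414), *Ltbp2* by 1.89 (0.55, 0.0444) and *Fn1* by 1.44 (0.39, 0.0322), with the standard error and adjusted p in parentheses. *Thbs1* did not pass the test (-0.30, adjusted p = 0.808). The share of all genes called in this subcluster was 7.58%. TMM-scaled *Runx1* was at 131.5, 112 and 107 CPM in PBS_Vehicle and at 1726, 722 and 893 CPM in Bleo_Vehicle, without overlap.

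In Bleo_NVP-BHG712 against Bleo_Vehicle, where 4.99% of genes were called in this subcluster, *Runx1* fell by 2.68 on the log2 scale (adjusted p = 0.00168), *Ltbp2* by 3.85 (adjusted p = 0.0133) and *Adam12* by 5.69 (adjusted p = 0.0274). *Adam12* was at 0, 0 and 44.5 CPM in Bleo_NVP-BHG712 and at 1526, 372.5 and 294 CPM in Bleo_Vehicle. *Tnc*, *Fn1* and *Thbs1* did not pass the test there. The *Fn1* level in the fibrotic subcluster of Bleo_NVP-BHG712 was 1523 ± 595 CPM, against 1880.0 ± 854 CPM in Bleo_Vehicle and 706.5 ± 245 CPM in PBS_Vehicle (SD, n = 3).

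Outside the fibrotic subcluster, *Ltbp2* was the member called, in the alveolar subcluster. There it was at 2.65, 7.05 and 2.65 CPM in PBS_Vehicle and at 45.5 and 38.9 CPM in the 2 Bleo_Vehicle libraries with at least 20 such nuclei. Its log2 fold change was 3.44 with a standard error of 0.58 (adjusted p = 0.00305), with 1.70% of all genes called. In Bleo_NVP-BHG712 against Bleo_Vehicle no member was called in the alveolar subcluster, against 2.52% of all genes. In the peribronchial subcluster, *Tnc* reached 12375, 992 and 331 CPM and *Ltbp2* 819, 226 and 120 CPM, unscaled, in Bleo_Vehicle, but no member passed the test in this subcluster. The nucleus with 831 *Tnc* UMIs lay in the peribronchial subcluster of Bleo_Vehicle replicate 1.

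**Figure D4:**
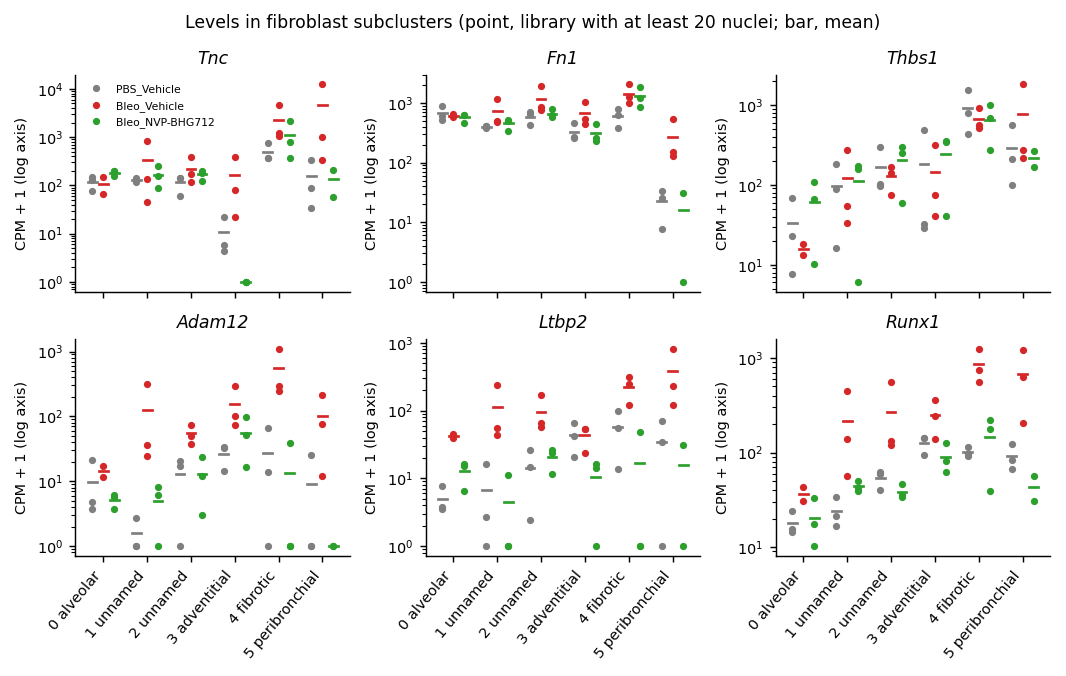
CPM plus 1, on a log axis, of 6 genes in the 6 main fibroblast subclusters, with a point for each library with at least 20 nuclei, a bar for the mean, and groups in color. *Adam12* and *Runx1* in the fibrotic subcluster show Bleo_Vehicle points above all PBS_Vehicle and Bleo_NVP-BHG712 points, and the *Ltbp2* points of Bleo_Vehicle in the alveolar subcluster, at 44.5 and 38.9 CPM, also lie above both.

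The share of each gene's UMIs that lay in fibroblasts moved in different directions. For *Fn1* it was 53.7%, 48.7% and 50.5% in Bleo_Vehicle, against 74.4%, 86.0% and 84.8% in PBS_Vehicle and 84.4%, 89.9% and 85.6% in Bleo_NVP-BHG712. *Tnc* went from 94.0% ± 1.76 in PBS_Vehicle to 80.6% ± 11.2 in Bleo_Vehicle. For *Adam12* the fibroblast share was higher in Bleo_Vehicle, at 43.9% ± 20.5 against 11.9% ± 4.90 in PBS_Vehicle, and for *Runx1* at 17.2% ± 13.8 against 4.13% ± 0.892. For *Postn* it was 13.5%, 14.4% and 7.64% in Bleo_Vehicle and 1.49%, 7.21% and 0% in PBS_Vehicle. None of these 5 genes had overlapping groups (exact two-sided permutation p = 0.1 each, the smallest possible), against 35.8% of all 10603 genes. Of the genes without overlap, 210 had the higher share in Bleo_Vehicle and 3582 the lower. *Ltbp2*, at 52.6% ± 8.66 and 42.1% ± 21.5, overlapped.

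**Figure D5:**
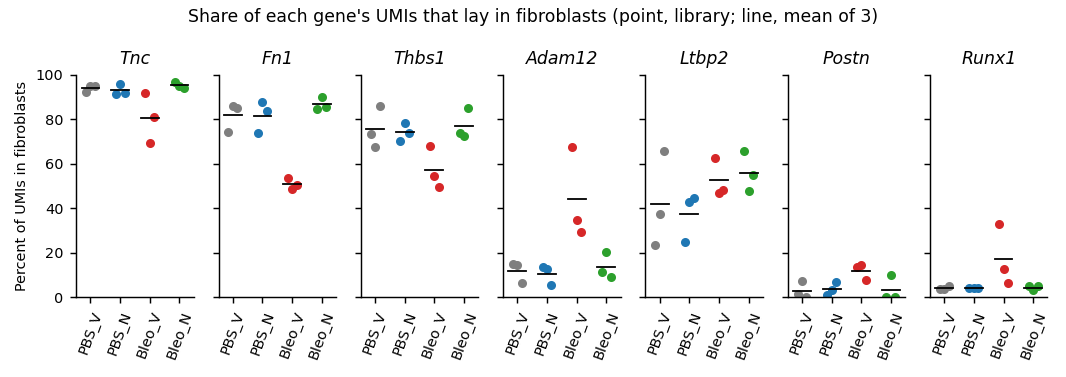
Percent of the UMIs of each gene in a library that lay in fibroblasts, with a point per library and a line for the mean of 3. The *Fn1* points of Bleo_Vehicle lie between 48.7% and 53.7%, below all other libraries, and those of *Adam12* and *Runx1* lie above all other libraries.

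*Fn1* rose in 8 of the 10 other named classes in which it could be tested. In Bleo_Vehicle against PBS_Vehicle it was called higher in general capillary cells (log2 fold change 4.54, where 3.99% of genes were called), venous endothelium (4.75, 1.17%), ciliated cells (4.10, 2.2%), alveolar type II cells (3.71, 4.17%), club cells (3.10, 2.22%), aerocytes (2.91, 0.711%), alveolar type I cells (2.12, 1.76%) and alveolar macrophages (1.34, 6.05%), with adjusted p from 0.00029 to 0.0464. In alveolar macrophages, a class that clears matrix and debris from the airspace, it was at 268, 285 and 209 CPM in PBS_Vehicle and at 1081, 457 and 441 CPM in Bleo_Vehicle. In alveolar type II cells it was at 9.20, 7.74 and 8.95 CPM and at 263, 90.1 and 49.5 CPM. The groups did not overlap in either class.

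The free RNA reference moved with these values, and the ciliated cells are themselves part of it. Unscaled, *Fn1* in Bleo_Vehicle replicates 1 to 3 was 273, 173 and 73.6 CPM in general capillary cells, 223, 79.0 and 46.0 CPM in alveolar type II cells, 243, 117.5 and 59.8 CPM in club cells and 109, 69.2 and 48.4 CPM in aerocytes and 37.0, 39.9 and 21.8 CPM in alveolar type I cells. All of these lay below the reference of the same library (429.8, 218 and 83.7 CPM), and so are not evidence of *Fn1* expression in those cells. The reference was not a level shared by all classes, since alveolar type I cells held far less. It may therefore exceed the free RNA, and how much of these values was free RNA was not tested. In venous endothelium *Fn1* was 859, 91.5 and 64.1 CPM, above the reference in replicate 1, where the class had 21 nuclei and 26 *Fn1* UMIs, and below it in replicates 2 and 3. In alveolar macrophages *Fn1* was 869.5, 419 and 429 CPM, above the reference in all 3 libraries.

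Between Bleo_Vehicle and Bleo_NVP-BHG712, *Fn1* fell in 7 of the same classes. The log2 fold changes were -3.96 in general capillary cells (4.61% of genes called), -4.73 in ciliated cells (4.94%), -4.04 in alveolar type II cells (4.90%), -3.42 in club cells (1.90%), -4.54 in aerocytes (1.04%), -3.70 in alveolar type I cells (4.33%) and -1.40 in alveolar macrophages (5.37%). Their adjusted p ranged from 0.00109 to 0.0204. In venous endothelium, with 1.17% of genes called, no member passed the test. The reference level of *Fn1* in Bleo_NVP-BHG712 was 5.77 to 9.93 CPM. The interaction called *Fn1* in aerocytes (-5.42, with 0.293% of genes called) and in club cells (-3.70, 0.317%) and no member elsewhere.

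*Runx1* was called in 2 endothelial classes. In general capillary cells it was at 16.0, 16.1 and 18.2 CPM in PBS_Vehicle, at 197, 212 and 53.8 CPM in Bleo_Vehicle and at 13.1, 15.6 and 18.5 CPM in Bleo_NVP-BHG712. Bleo_Vehicle stood above both other groups without overlap, with log2 fold changes of 3.13 (adjusted p = 0.000395) and -3.16 (adjusted p = 0.00192). In aerocytes the corresponding values were 2.07 (adjusted p = 0.0356) and -2.50 (adjusted p = 0.0253). Fibroblasts of Bleo_Vehicle stood at 760, 204 and 127.5 CPM, each class being scaled on its own. A higher *Runx1* level in Bleo_Vehicle was thus not particular to fibroblasts. The reference classes chosen for *Runx1* held it themselves, so how much of these endothelial values was free RNA was not tested. In alveolar macrophages, a class with high *Runx1*, Bleo_Vehicle was at 928, 1364 and 1486 CPM and PBS_Vehicle at 1857, 1875 and 1369 CPM, which overlapped.

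*Adam12* in aerocytes went the other way from *Adam12* in fibroblasts. It was at 160, 275 and 374 CPM in PBS_Vehicle, at 87.8, 83.4 and 88.4 CPM in Bleo_Vehicle and at 360, 399 and 389.5 CPM in Bleo_NVP-BHG712. Bleo_Vehicle was below both other groups without overlap, and the rise from Bleo_Vehicle to Bleo_NVP-BHG712 passed the test (log2 fold change 2.15, standard error 0.43, adjusted p = 0.0328), while the difference from PBS_Vehicle did not (-1.54, adjusted p = 0.234). *Cthrc1* in alveolar type II cells fell by 1.87 on the log2 scale from PBS_Vehicle, at 34.3, 10.3 and 23.9 CPM, to Bleo_Vehicle, at 4.78, 4.50 and 8.22 CPM (standard error 0.48, adjusted p = 0.0327). This call rested on few UMIs. All classes together held 106, 10 and 14 *Cthrc1* UMIs in PBS_Vehicle replicates 1 to 3 and 9, 15 and 93 in Bleo_Vehicle.

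Summed over all nuclei of a library, *Ltbp2* was the member that passed the test. It was at 12.7, 11.0 and 6.78 CPM in PBS_Vehicle, at 82.3, 35.0 and 26.9 CPM in Bleo_Vehicle and at 8.60, 9.43 and 5.96 CPM in Bleo_NVP-BHG712, with no overlap of Bleo_Vehicle with either group. The log2 fold changes were 2.19 (adjusted p = 0.0331, 2.44% of genes called) and -2.56 (adjusted p = 0.0151, 5.51%). Such a sum cannot tell more cells of a class from more RNA per cell. *Runx1* changed by 0.38 (adjusted p = 0.213) and *Adam12* by 1.52 (adjusted p = 0.144) between PBS_Vehicle and Bleo_Vehicle in the same sums.

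Genes of related lists were counted in fibroblasts, beside 3.61% of all genes called after bleomycin, with a median log2 fold change of 0.00702, and 7.00% called with the inhibitor under bleomycin. Of 13 tested genes of activated fibroblasts other than the members, 4 rose and 0 fell in Bleo_Vehicle against PBS_Vehicle, with a median log2 fold change of 1.65. They were the kinesin gene *Kif26b* (5.51), the WNT-induced matricellular gene *Wisp1* (3.63), the WNT antagonist *Sfrp1* (3.16) and the heparan sulfatase *Sulf1* (2.32). These genes also named the fibrotic subcluster and so are not independent of it. In Bleo_NVP-BHG712 against Bleo_Vehicle, 5 of the 13 fell, the largest being *Kif26b* (-4.66), the metalloprotease inhibitor *Timp1* (-4.01), *Sfrp1* (-3.78) and *Wisp1* (-3.25).

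Of 23 tested collagen, elastic fiber and cross-linking genes, 2 rose, *Col8a1* (3.74) and the lysyl oxidase-like *Loxl3* (2.23), and none fell, with a median of 0.36. With NVP-BHG712 under bleomycin 5 of them fell, the largest being the prolyl hydroxylase *P4ha3* (-3.88), *Col8a1* (-2.95), *Loxl3* (-2.43) and elastin, *Eln* (-2.27). Of 15 receptors for the secreted members, the integrin subunit *Itga8* fell after bleomycin (-1.59) and rose with the inhibitor (1.83), while *Sdc1* (-4.15), *Itgb6* (-2.13) and *Lrp1* (-1.09) fell with the inhibitor. Of 21 TGF-β and BMP signaling genes, *Bmp5*, a BMP ligand, fell after bleomycin (-1.13) and rose with the inhibitor (1.25), and the BMP target *Id1* fell with it (-1.43). Among 15 paralogs and partners of the members, *Runx2* rose (2.25) whereas *Tnxb* (-1.52) and *Ltbp4* (-0.99) fell after bleomycin, and with the inhibitor *Runx2* fell (-2.82) and *Tnxb* (1.58) and *Ltbp4* (0.84) rose. No gene of these 5 lists was called in the other comparisons of 2 groups, and in the interaction *Sfrp1* was (-4.44, adjusted p = 0.0312).

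The genes whose mean levels over the 19 classes were most like those of each member were ranked by Pearson's r of log2(CPM + 1), given as a description over classes that share libraries. For *Postn* they were *Trpc6* (0.97), *Tusc5* (0.95) and *Kcnj12* (0.92), each highest in pericytes, and those for *Ltbp2* included *Mark1* (0.94) and *Vsnl1* (0.92). For *Tnc* they were *Nox4* (0.88), *G630064G18Rik* (0.88) and *Gm15866* (0.87), and for *Fn1* *Eepd1* (0.91), *P2ry6* (0.90) and *Lrp1* (0.87), of which *Eepd1* and *Lrp1* were highest in alveolar macrophages. *Thbs1* was most like *Kcnj8* (0.86), *Adamts17* (0.82) and *Ppp1r3a* (0.82), and the genes most like *Adam12* included *Rspo3* (0.83) and *Pard6g* (0.79). *Runx1* was most like *Sec11c* (0.91), *Cytip* (0.91) and *N4bp2l1* (0.90). For *Cthrc1*, *Kl* (0.74), *Gm44751* (0.73) and *Ofd1* (0.72) came first, and for *Grem1*, whose order rests on few UMIs, *Gm48802*, *Mylk4* and *Gnrhr* (all 0.98).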

How the data were processed

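Nuclei of 12 frozen mouse lungs, 3 in each group, were sequenced with droplet single-nucleus RNA-seq. The deposited matrices hold raw UMI counts per gene and nucleus, which the authors made by alignment to mm10. The submitters' processing notes name Cell Ranger 7.0 and Seurat 4.4.1, and the file headers name Cell Ranger 7.2.0. Their later corrections for free RNA and doublets are not part of these counts.

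Of 49163 barcodes, nuclei with 200 to 6000 genes and at most 5% mitochondrial UMIs were kept (47319), and 2708 called doublets (5.72%) were removed. The 44611 nuclei were clustered with scanpy 1.11.5 after a Harmony correction by library, with the 9 genes left out, and named from marker lists. Counts were summed per library and class (at least 20 nuclei) and tested with edgeR 4.0.16 (quasi-likelihood, TMM, all 4 groups in 1 fit, Benjamini-Hochberg over all genes tested, threshold 0.05) in R 4.3.3. DESeq2 1.42.0 was an alternative. The edgeR step was tested on simulated data. Replicate numbers paired the 2 PBS groups, whose same-numbered libraries deviated together (r of 0.748, 0.533 and 0.598 over 7637 genes), and did not meet that rule between other groups. Shares were compared with an exact two-sided permutation test over libraries. The main tests held no term for run or batch, so the p-values measure the spread between libraries within groups. Where a group spans more than 1 run or batch, that spread mixes mice with runs or batches.

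Named genes were the 9 members, the 4 called genes of each related list with the largest change, and the 3 genes most alike each member, of which some are not reported here. The members, lists and tests were chosen with earlier results of these data known. Limits and intervals cover counting error only. Fibroblast sums of 876341 to 9154282 UMIs set the precision. Alternatives were other size factors, no filter on low counts, a replicate block, run number as a block, stricter nuclei, doublets kept, no Harmony correction, thinning to 1000 UMIs and leaving out each library.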

Additional observations from a re-analysis of the deposited data

Results flagged for a closer look

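The NVP-BHG712 effect on *Fn1* under bleomycin differed from that under PBS in 2 classes, by the interaction term of edgeR. In aerocytes, where 0.293% of all genes had an interaction past the threshold, the log2 difference was -5.42 with a standard error of 1.03 (adjusted p = 0.0133). *Fn1* was at 9.02, 6.71 and 22.0 CPM in PBS_Vehicle, 26.0, 11.8 and 5.21 CPM in PBS_NVP-BHG712, 121, 76.2 and 53.2 CPM in Bleo_Vehicle and 8.99, 0 and 4.48 CPM in Bleo_NVP-BHG712.

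In club cells, where the share was 0.317%, the log2 difference was -3.70 with a standard error of 0.81 (adjusted p = 0.0435). *Fn1* was at 11.8, 13.4 and 22.0 CPM in PBS_Vehicle, 18.3, 18.9 and 13.6 CPM in PBS_NVP-BHG712, 284, 132 and 61.9 CPM in Bleo_Vehicle and 6.98, 9.32 and 18.2 CPM in Bleo_NVP-BHG712. In both classes the unscaled Bleo_Vehicle levels lay below the free RNA reference of the same libraries. Groups of 3 libraries were too small to be examined for single libraries far from the others.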

How the results depend on the processing

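In fibroblasts the 3 calls between Bleo_Vehicle and PBS_Vehicle became 0 with only the libraries compared in the fit, and 0 to 4 when 1 library was left out. Those between Bleo_NVP-BHG712 and Bleo_Vehicle ranged from 0 to 3. All 3 were lost without PBS_Vehicle replicate 3 in the first comparison and without Bleo_NVP-BHG712 replicate 3 in the second. The interaction called 0, but 2 with DESeq2, 2 with a replicate block and 0 to 2 without 1 library. Without 1 library, the log2 fold change of *Thbs1* ranged from -0.38 to 1.72 after bleomycin and from -1.02 to 0.69 with the inhibitor, and that of *Tnc* with the inhibitor from -2.74 to 0.12, each turning without Bleo_Vehicle replicate 1. *Postn* between Bleo_NVP-BHG712 and PBS_NVP-BHG712 ranged from -4.72, without Bleo_NVP-BHG712 replicate 2, to 0.73. The cause was not tested.

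Whole-lung calls (1 and 1, interaction 0) were 3, 3 and 1 with DESeq2, 0 after bleomycin with no filter on low counts, and 2 with the inhibitor and 1 in the interaction with the block, with ranges of 0 to 4, 0 to 4 and 0 to 1 without 1 library. Calls in other classes (11, 10, interaction 2) were 27, 26 and 13 with no filter, 7 in the interaction with DESeq2 and 7 with the block, and ranged over 6 to 20, 4 to 16 and 0 to 11. Calls in subclusters (6, 3, interaction 0) were 14, 7 and 2 with DESeq2, 17, 14 and 8 with no filter, 12, 6 and 3 with the block, and ranged over 3 to 14, 1 to 11 and 0 to 5.

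Members whose thinned nucleus shares did not overlap ranged over 4 to 7 after bleomycin, 0 to 1 between the PBS groups and 1 to 2 between the NVP-BHG712 groups without 1 library. They were 1 between the PBS groups at 1000 UMIs and 0 between the NVP-BHG712 groups with doublets kept. For UMI shares they were 3 in both comparisons with Bleo_Vehicle with doublets kept and 2 between the NVP-BHG712 groups without Harmony correction, and ranged over 5 to 6, 5 to 7, 0 to 2 and 1 to 3. Replicate numbers paired the 2 PBS groups only, between which the block changed no call. Over all groups 8 of 18 same-numbered pairs correlated above 0.1 (r from -0.083 to 0.75 over 7637 genes), and 10 of 12 libraries correlated best with one of their own number.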
